A study of Mus musculus with 127 samples.

Results

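Respiratory complex I, the NADH:ubiquinone oxidoreductase of the inner mitochondrial membrane, takes electrons from NADH and pumps protons. In the gene table examined here its nuclear-encoded parts are named with the prefix Nduf. Every gene whose symbol starts with Nduf was taken, with the transcript of highest mean level where a symbol had several, as 6 had. This gave 45 Nduf genes out of 24320 gene symbols. By textbook role, 7 encode core subunits of the catalytic matrix arm, 9 encode accessory subunits of that arm, and 9 and 11 encode accessory subunits of the proximal and distal membrane arm. A further 7 (Ndufaf1 to Ndufaf7) are named as assembly factors. Ndufa4, first named as a complex I subunit, is now placed in complex IV, and Ndufa4l2 is its relative, so the name prefix alone does not define the complex.

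As background, complex I is built from subunits of a mitochondrial and a nuclear genome and needs dedicated assembly factors. Its core subunits carry the flavin and iron-sulfur clusters, and accessory subunits surround and stabilise the arms. Erythroblasts make heme, whose first and last steps take place in mitochondria, and lose their mitochondria as they mature into red cells.

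Transcript levels were measured in 127 single cells of C57BL/6J mouse marrow, and the labels call every cell an erythroblast. Of these, 48 came from mice with Flvcr deleted, 48 from wild-type mice and 31 from wild-type animals given erythropoietin (EPO), the main hormone of red cell formation. FLVCR is a heme exporter, and the study compared cells lacking it with the other groups. The labels do not say how or in which cells the gene was deleted, how old the mice were or how much EPO they received. Each cell had a class letter from A to D given by the submitters and a normalized value of Ter119, a surface antigen that increases as red cell precursors mature. Within a capture chip the letters followed Ter119, with an overlap only of classes C and D on the larger EPO chip. Between chips 1 letter covered different ranges. Class C ran from 0.551 to 0.741 in wild-type and from 0.574 to 0.727 in Flvcr-deleted cells, but from 0.208 to 0.366 on the larger EPO chip. The smaller EPO chip gave 3 cells of classes B and C, with values of at most 0.00263, below all class A cells of the other chips. Class-by-class comparisons between groups therefore matched letters and not Ter119 values. Classes B, C and D held 16, 9 and 5 Flvcr-deleted cells, 10, 19 and 13 wild-type cells, and 11, 9 and 4 EPO-treated cells. Class A held 18, 6 and 7 cells and is described apart.

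The labels tie no cell to an animal, and a group therefore stands for 1 sample. No test between groups was possible, no p-value is given, and each SD below is over cells. Flvcr-deleted and wild-type cells came from 1 capture chip each and EPO-treated cells from 2 others, so chip and group cannot be told apart. Flvcr1, listed as Mfsd7b, was found in 1 of 48 wild-type cells and in none of the 48 Flvcr-deleted and 31 EPO-treated cells, so it could not check the labels at this depth. All 96 cells of classes B to D had at least 3 of 10 erythroid markers, and none had 3 of the 12 granulocyte and monocyte markers. The number of genes detected at 1 RPKM (reads scaled to transcript length and to sequencing depth) or more differed between groups. Over classes B to D the wild-type median was 2199 (1151 to 3871), the Flvcr-deleted median 1197 (645 to 3452) and the EPO-treated median 1385 (638 to 3982). Estimated reads per cell had a median of 4.06 M (2.10 M to 5.34 M) for wild-type and 3.53 M (0.760 M to 4.88 M) for Flvcr-deleted cells. They could not be estimated for EPO-treated cells, whose values were rounded.

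Levels are means of log2(RPKM + 1), taken within each class and averaged over classes B, C and D with equal weight. In wild-type cells Ndufb9, a distal membrane-arm subunit, had the highest level at 7.01 ± 2.35 (SD over cells, n = 42). Ndufa4 followed at 6.11 ± 2.54, Ndufa3 at 5.91 ± 2.53, Ndufb7 at 5.76 ± 2.52 and Ndufb8 at 5.08 ± 3.26. These neighbours in the order were separated by less than their spread over cells. Ndufa4 led in Flvcr-deleted cells at 6.75 ± 2.65 (n = 30), ahead of Ndufa3 at 6.67 ± 2.69 and Ndufb9 at 6.25 ± 3.61. It also led in EPO-treated cells at 6.08 ± 2.94 (n = 24), ahead of Ndufb9 at 4.71 ± 4.21. The order of the 45 genes was alike between groups, with a Spearman correlation across genes of 0.86 between Flvcr-deleted and wild-type cells, 0.87 between EPO-treated and wild-type cells and 0.79 between Flvcr-deleted and EPO-treated cells. Genes are not independent replicates, and these values describe the order only.

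Detection in single cells was partial for most of the genes. In classes B to D, 31 of the 45 genes were detected in at least 50% of wild-type cells, 22 in at least 50% of Flvcr-deleted cells and 21 in at least 50% of EPO-treated cells. The same count was not made over all genes, whose number detected per cell also differed between groups as given above. The spread over cells was wide as well. Among the 38 genes whose mean over all cells was at least 1 on the log2 scale, called kept below, the SD over wild-type cells ran from 0.96 for Ndufaf7 to 3.34 for Ndufv1. The 7 genes below that level were Ndufa4l2 and Ndufaf1 to Ndufaf6.

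**Figure D1:**
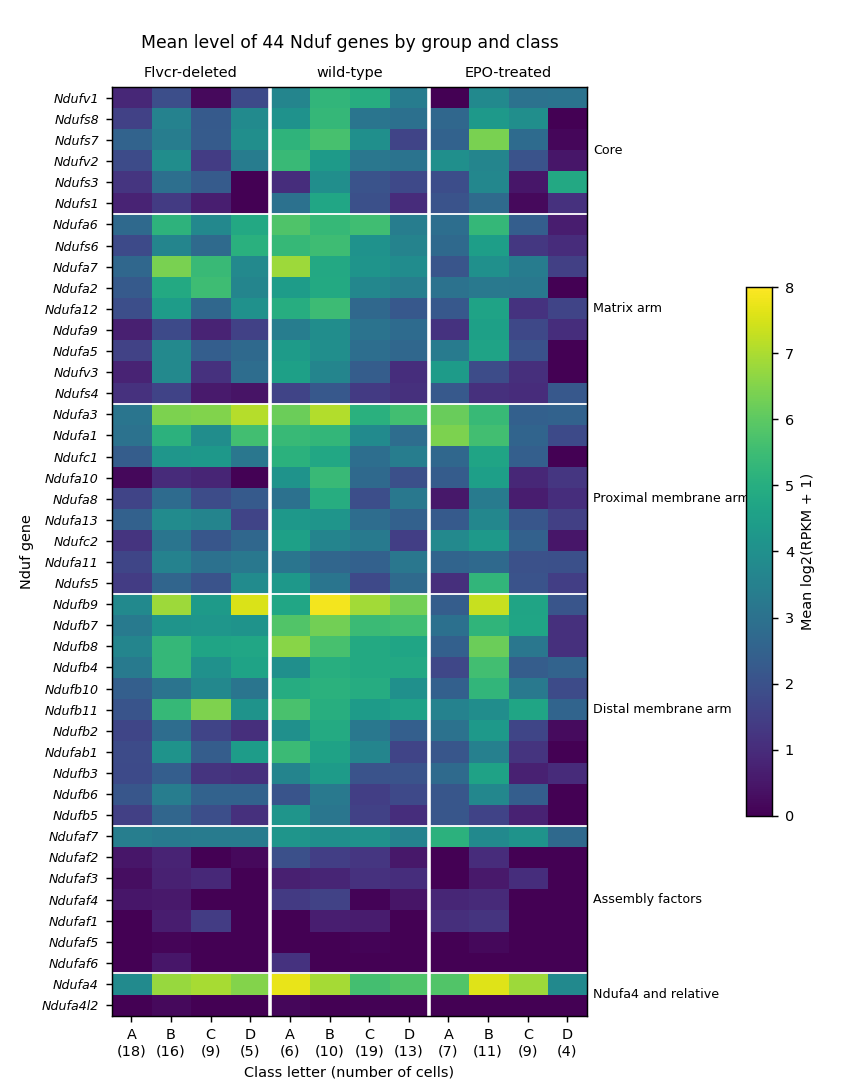
Mean level of 44 of the 45 Nduf genes as log2(RPKM + 1) on the colour scale, by group and class letter (columns, cell number in brackets), with genes in rows sorted by role and wild-type level. In wild-type class B Ndufb9 is brightest at 7.87, and Ndufaf1 to Ndufaf6 and Ndufa4l2 are dark in each column.

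The summed level of the 45 genes was set against all other transcripts of the same cell. Globin transcripts were left out of that sum, because in classes B to D they took a median of 69.6% of summed RPKM in the wild-type, 90.7% in the Flvcr-deleted and 64.9% in the EPO-treated group. Of the remaining RPKM the Nduf genes took a median of 0.929% in the wild-type group (0.238% to 1.79%), 1.42% in the Flvcr-deleted group (0.331% to 2.34%) and 1.53% in the EPO-treated group (0.316% to 3.33%). The ranges overlapped between all groups, and the medians of Flvcr-deleted and EPO-treated cells lay within the wild-type range. The number of Nduf genes detected per cell went the other way, with a wild-type median of 26.5 (8 to 41), a Flvcr-deleted median of 20.5 (5 to 40) and an EPO-treated median of 16.5 (3 to 41). These medians were 58.9%, 45.6% and 36.7% of the 45 genes. Of all kept genes a median of 62.8%, 37.5% and 41.3% was detected in the same order. Against wild-type the Nduf share thus fell less than the kept share in Flvcr-deleted cells and by a like amount in EPO-treated cells. This was not tested.

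The share also ran differently along the classes. In Flvcr-deleted cells the median was 1.53% in class B, 1.41% in class C and 1.50% in class D. In wild-type cells it was 1.20%, 0.837% and 0.809% in the same order. In EPO-treated cells it was 1.75%, 1.41% and 0.511%, and the 4 class D cells (0.316% to 0.706%) all lay below the 11 class B cells (1.07% to 3.33%). The 5 Flvcr-deleted class D cells (1.12% to 2.20%) all lay above those 4 EPO-treated cells. Within a chip, the Spearman correlation of the share with the Ter119 value over cells of classes B to D was -0.00022 in 30 Flvcr-deleted cells, -0.34 in 42 wild-type cells and -0.55 in 21 EPO-treated cells. The same share had a correlation of 0.76, 0.85 and 0.24 with the number of genes detected. The part of that number in the share was not tested.

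**Figure D2:**
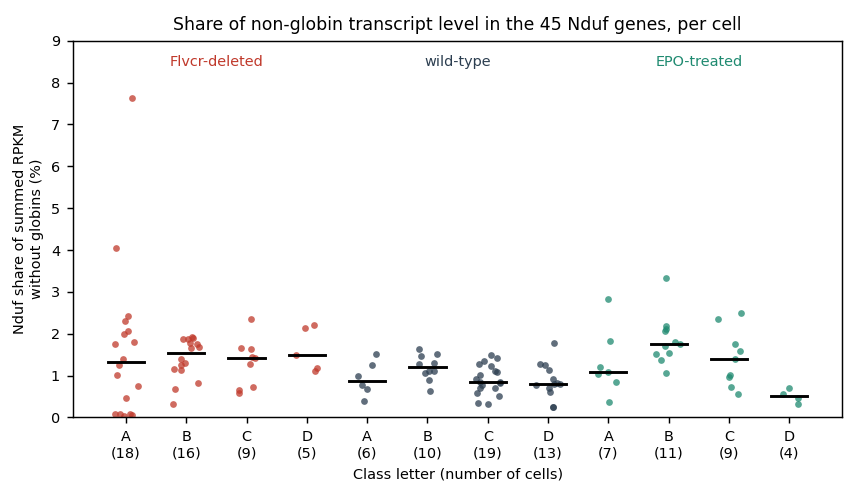
Share of summed RPKM, globins left out, that lay in the 45 Nduf genes (vertical axis, percent), 1 point per cell, by group and class letter with cell numbers in brackets. Bars mark the medians, which in EPO-treated cells run from 1.75% in class B to 0.511% in class D and in Flvcr-deleted cells from 1.53% to 1.50%.

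The Flvcr-deleted cells were compared with wild-type cells class by class. A gene was counted as lower or higher where the mean difference over classes B to D was at least 1 on the log2 scale and had the same sign in each class. This is a rule of size and not a test. Of the 45 Nduf genes, 9 were lower and 0 higher in Flvcr-deleted cells, where 48.3% of the 2540 kept genes were lower and 3.74% higher. The lower genes were all among the 38 kept Nduf genes, of which they made up 23.7%. The median difference of the 45 genes was -0.22, against -1.08 for all kept genes. The difference between these shares was not tested.

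The 9 lower genes were spread over the roles. Of the 7 core subunits 2 were lower, of the 9 matrix-arm accessory subunits 1 (Ndufa9), of the 9 proximal membrane-arm subunits 2 and of the 11 distal membrane-arm subunits 4 (Ndufb2, Ndufb3, Ndufb7 and Ndufb10). The largest differences were those of Ndufv1 at -3.24, Ndufa10 at -2.75, Ndufs1 at -1.88, Ndufa9 at -1.88 and Ndufb2 at -1.64. The median difference by role was -0.85 for core subunits, -0.19 for matrix-arm accessory subunits, 0.20 and -0.22 for proximal and distal membrane-arm subunits, and -0.46 for assembly factors. Core subunits took a median of 13.5% of the summed Nduf level of wild-type cells, 7.17% of that of Flvcr-deleted cells and 12.2% of that of EPO-treated cells.

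Ndufv1 encodes the core subunit that holds the flavin and binds NADH. In wild-type cells of classes B to D its level ran from 0 to 9.00 with a median of 5.37, and it was detected in 29 of 42 cells. In Flvcr-deleted cells it ran from 0 to 8.98 with a median of 0 and was detected in 8 of 30 cells (26.7%, exact 95% interval 12.3% to 45.9%). In EPO-treated cells it ran from 0 to 8.91 with a median of 2.14 and was detected in 14 of 24 cells. The ranges overlapped fully, since every group had cells at 0 and cells near 9. What differed was in how many cells the transcript was detected. Of all kept genes a median of 62.8% was detected per wild-type cell, 37.5% per Flvcr-deleted cell and 41.3% per EPO-treated cell. The part of this in the Ndufv1 counts was not tested. The Flvcr-deleted difference from wild-type was -3.34 in class B, -4.79 in class C and -1.58 in class D. Only 1 of 5 Flvcr-deleted class D cells had Ndufv1, at 8.98. Intervals of shares cover counting error only.

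Ndufa10, an accessory subunit of the proximal membrane arm, showed the same form. Its level ran from 0 to 8.57 with a median of 2.29 in wild-type cells, detected in 22 of 42, and from 0 to 7.86 with a median of 0 in Flvcr-deleted cells, detected in 3 of 30. EPO-treated cells had it in 9 of 24, with a median of 0. The difference from wild-type was -4.46 in class B, -1.90 in class C and -1.89 in class D. Ndufs1, the core subunit with the most iron-sulfur clusters, was present in 19 of 42 wild-type cells, 6 of 30 Flvcr-deleted cells and 0 of the 5 Flvcr-deleted cells of class D.

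Other core subunits had smaller differences that were not counted. Ndufs3 differed by -0.85. Ndufv2, the partner of Ndufv1, differed by -0.64, Ndufs8 by -0.57 and Ndufs7 by -0.56. For Ndufs7 the class values were -2.30 in class B, -1.67 in class C and 2.30 in class D, so its mean hides opposite directions.

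At the other end, no Nduf gene met the rule for higher levels. The highest means were those of Ndufa7 (0.91), Ndufa1 (0.89) and Ndufa3 (0.76), all small accessory subunits. Ndufa3 had a wild-type median of 6.38 (0 to 8.31), a Flvcr-deleted median of 7.52 (0 to 9.44) and an EPO-treated median of 3.00 (0 to 8.91). It was detected in 37 of 42, 27 of 30 and 13 of 24 cells in that order. Its difference between Flvcr-deleted and wild-type cells was -0.65 in class B, 1.41 in class C and 1.52 in class D.

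**Figure D3:**
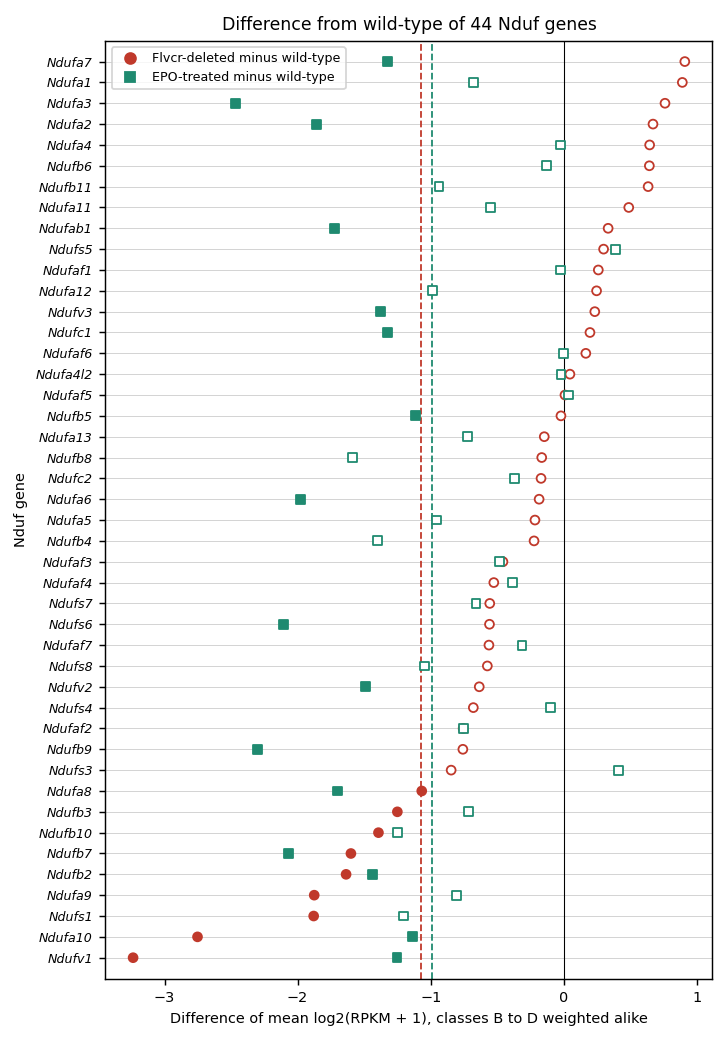
Difference from wild-type in mean log2(RPKM + 1), classes B to D weighted alike (horizontal axis), for 44 of the 45 Nduf genes (vertical axis, sorted by the Flvcr-deleted difference), with circles for Flvcr-deleted and squares for EPO-treated cells. Filled points met the rule of size, open points did not, and dashed lines in the matching colours mark the median of all kept genes at -1.08 and -0.99.

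The promoters of a few of these genes are shown because the genes differ in how they stood against wild-type: Ndufv1 and Ndufa10 were lowest in Flvcr-deleted cells, Ndufa3 was among the highest there and lowest in EPO-treated cells, and Ndufs6 differed in direction between classes. RefSeq start sites on GRCm38.p6 gave a window of 250 bases before to 50 after the start for 39 of the 45 genes, in 41 windows. The sequences are given 5′ to 3′ along the gene's strand, with capitals for matches to the searched motifs. Ndufv1 lies at chr19:4012706-4013005 on the minus strand, Ndufa10 at chr1:92473709-92474008 on the minus strand, Ndufa3 at chr7:3617123-3617422 on the plus strand and Ndufs6 at chr13:73328433-73328732 on the minus strand.
Ndufv1: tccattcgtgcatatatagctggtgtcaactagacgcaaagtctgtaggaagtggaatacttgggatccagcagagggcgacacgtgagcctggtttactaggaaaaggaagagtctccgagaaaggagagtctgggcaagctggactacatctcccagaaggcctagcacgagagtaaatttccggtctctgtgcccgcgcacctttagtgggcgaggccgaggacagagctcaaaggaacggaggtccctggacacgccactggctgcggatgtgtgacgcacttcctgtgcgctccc
Ndufa10: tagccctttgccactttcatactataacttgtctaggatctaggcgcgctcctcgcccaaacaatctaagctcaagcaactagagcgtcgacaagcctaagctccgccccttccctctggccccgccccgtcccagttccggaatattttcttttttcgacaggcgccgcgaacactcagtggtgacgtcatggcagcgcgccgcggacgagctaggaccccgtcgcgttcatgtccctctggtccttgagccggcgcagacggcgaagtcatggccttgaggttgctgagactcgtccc
Ndufa3: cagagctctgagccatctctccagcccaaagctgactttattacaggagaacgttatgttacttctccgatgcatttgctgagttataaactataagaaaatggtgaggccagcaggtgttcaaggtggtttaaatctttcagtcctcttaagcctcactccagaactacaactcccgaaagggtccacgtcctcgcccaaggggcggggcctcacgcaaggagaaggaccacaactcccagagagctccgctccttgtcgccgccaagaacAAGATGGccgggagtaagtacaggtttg
Ndufs6: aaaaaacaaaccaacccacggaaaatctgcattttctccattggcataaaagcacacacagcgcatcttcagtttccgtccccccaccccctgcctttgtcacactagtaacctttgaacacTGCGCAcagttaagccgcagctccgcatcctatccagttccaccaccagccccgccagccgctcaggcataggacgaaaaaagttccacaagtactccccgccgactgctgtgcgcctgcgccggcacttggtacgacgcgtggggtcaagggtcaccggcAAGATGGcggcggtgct
Both strands were searched for an NRF1 core (TGCGCA), an ETS motif (CCGGAAG), a YY1 core (AAGATGG) and a GATA motif (TGATAA). NRF1, ETS-family and YY1 factors are known regulators of nuclear genes for mitochondrial proteins, and GATA1 is the central erythroid factor. The NRF1 core was in 29.3% of the 41 Nduf windows and in 7.76% of all 32851 windows. The ETS motif was in 12.2% against 8.86%, the YY1 core in 17.1% against 6.34% and the GATA motif in 4.88% against 9.05%. The capitals mark NRF1 and YY1 matches in Ndufs6 and a YY1 match in Ndufa3, and the windows of Ndufv1 and Ndufa10 held none of the 4 motifs. Among the genes with the NRF1 core were Ndufa5, Ndufa6, Ndufa8, Ndufa9 and Ndufs5, and among those with the YY1 core Ndufs4 and Ndufs7. Ndufa9 and Ndufs5 also held the GATA motif. A match describes the letters alone and was not tied to binding.

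The difference from wild-type in Flvcr-deleted cells went with transcript length. Across the 45 genes the Spearman correlation of difference and length was -0.44, and across 2510 kept genes with a length it was -0.21. Ndufab1 had a listed length of 3479 nt, far from its neighbours, and without it the value over 44 genes was -0.50, a choice made after seeing the data. The genes of up to 780 nt, the median length, had a median difference of -0.17 with 4 of 23 lower, and the longer genes -0.49 with 5 of 22 lower. All kept genes split at the same length had a median of 0.23 (n = 256) and -1.18 (n = 2254). Thus kept Nduf genes over 780 nt, with a median of -0.66, stood above other long genes, and kept Nduf genes up to 780 nt, at 0.016, stood below other short ones. In EPO-treated cells the correlation with length over the 45 genes was 0.27. The part of length in these differences was not tested.

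**Figure D4:**
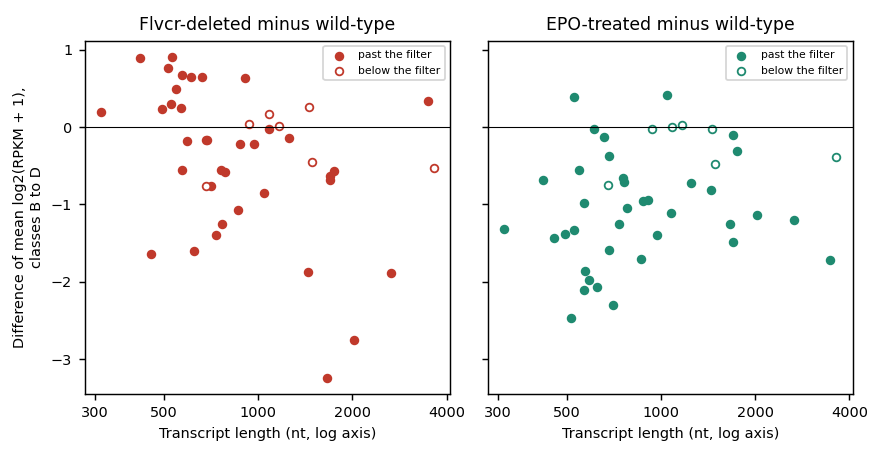
Difference from wild-type in mean log2(RPKM + 1) over classes B to D (vertical axis) against transcript length in nt on a log axis, 1 point for each of 44 Nduf genes, in Flvcr-deleted cells (left) and EPO-treated cells (right). Filled points are 37 kept genes and open points the 7 others, and on the left the points below -1.8 are all at lengths over 780 nt.

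EPO-treated cells were set against the same wild-type cells, so the comparisons share their reference. Of the 45 Nduf genes, 16 were lower and 0 higher in EPO-treated cells, where 42.0% of kept genes were lower and 0.512% higher. The median difference was -0.95, against -0.99 for all kept genes. Among the 38 kept Nduf genes 42.1% were lower, a share near the background. The median was -0.28 in class B, -0.88 in class C and -1.27 in class D. For all kept genes it was -0.68, -1.13 and -1.13 in the same order.

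The largest of these differences were those of Ndufa3 at -2.46, Ndufb9 at -2.30, Ndufs6 at -2.11, Ndufb7 at -2.07 and Ndufa6 at -1.98. Ndufb9 had a median of 7.46 in wild-type cells (0 to 9.29, detected in 39 of 42) and 7.57 in EPO-treated cells (0 to 10.7, detected in 16 of 24). In EPO-treated cells its detection went from 10 of 11 in class B to 5 of 9 in class C and 1 of 4 in class D. The EPO-treated cells in which it was detected thus reached levels as high as wild-type cells, and detection was less frequent in the later classes. Of all kept genes a median of 54.3%, 36.0% and 33.3% was detected per EPO-treated cell in classes B, C and D. The part of this fall in the Ndufb9 counts was not tested. Ndufs6, a zinc-binding accessory subunit, was detected in 31 of 42 wild-type cells with a median of 4.87 (0 to 7.86) and in 13 of 24 EPO-treated cells with a median of 2.17 (0 to 8.72).

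By role, 5 of 9 matrix-arm accessory subunits, 4 of 9 proximal and 5 of 11 distal membrane-arm subunits were lower in EPO-treated cells. Of the core subunits Ndufv1 (-1.25) and Ndufv2 (-1.49) met the rule. Ndufs1 at -1.21 and Ndufs8 at -1.05 were as large but differed in sign between classes. The values for Ndufs7 and Ndufs3 were -0.66 and 0.41. Both comparisons with wild-type counted Ndufv1, Ndufa8, Ndufa10, Ndufb2 and Ndufb7 as lower.

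Flvcr-deleted and EPO-treated cells were also compared directly. Flvcr-deleted cells had 8 Nduf genes higher and 2 lower, against 7.76% of kept genes higher and 8.86% lower. Of the 38 kept Nduf genes 21.1% were higher and 5.26% lower. The median difference was 0.47 against -0.12 for all kept genes. The higher genes were Ndufa3 (3.23), Ndufa2 (2.53), Ndufa7 (2.23), Ndufab1 (2.06), Ndufv3 (1.61), Ndufb11 (1.57), Ndufb5 (1.09) and Ndufa11 (1.04). All 8 are accessory subunits of the arms by the roles used here, and Ndufab1 is also the mitochondrial acyl carrier protein. The lower genes were Ndufv1 (-1.98) and Ndufa10 (-1.62), the same genes that were lowest against wild-type. In class D the median difference was 1.54, against 0.23 for all kept genes, from 5 and 4 cells. In class B it was -0.46, against -0.54 for all kept genes, so both medians turned in direction between classes.

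Ndufa2, a matrix-arm accessory subunit, shows this contrast cell by cell. It was found in 25 of 30 Flvcr-deleted cells with a median of 5.57 (0 to 7.64) and in 11 of 24 EPO-treated cells with a median of 0 (0 to 7.03). The 5 Flvcr-deleted class D cells had levels of 0, 0, 7.46, 5.54 and 5.22, and all 4 EPO-treated class D cells were at 0. Ndufb9 was not counted as higher in this comparison, because its sign was not the same in each class. In class D its levels were 7.04, 9.11, 9.12, 6.50 and 5.99 in the Flvcr-deleted cells. They were 0, 0.54, 7.94 and 0 in the EPO-treated cells, so 1 EPO-treated cell lay within the Flvcr-deleted range.

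Class D was compared with class B inside each group to follow the genes along the letters. Here a gene counted as lower or higher from a difference of at least 1 alone. In wild-type cells 31 of 45 Nduf genes were lower in class D and 0 higher. Of all kept genes 46.1% were lower and 5.39% higher, and of the 38 kept Nduf genes 78.9% were lower. The median was -1.42 against -0.90 for all kept genes. Among the core subunits Ndufs7 (-4.05) and Ndufs1 (-3.71) had the largest differences. Lower as well were 8 of 9 matrix-arm, 7 of 9 proximal and 7 of 11 distal accessory subunits. In EPO-treated cells 36 of 45 were lower and 2 higher (Ndufs3 and Ndufs4). Of all kept genes 58.3% were lower and 10.9% higher, and of the 38 kept Nduf genes 89.5% and 5.26%. The median was -3.03 against -1.36 for all kept genes. All 11 distal membrane-arm subunits were lower there, from -1.34 to -5.21.

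In Flvcr-deleted cells class D stood closer to class B than in the other groups, for the Nduf genes and all kept genes alike. There 12 of 45 Nduf genes were lower and 2 higher (Ndufs6 at 1.46 and Ndufs5 at 1.26). Of all kept genes 30.6% were lower and 13.5% higher, and of the 38 kept Nduf genes 31.6% and 5.26%. The share of lower genes was thus near the background. The median was -0.53 against -0.43 for all kept genes. Of the core subunits Ndufs3 (-2.93) and Ndufs1 (-1.39) were lower. Ndufs6 was at 0, 3.20, 7.32, 7.36 and 7.53 in the 5 Flvcr-deleted class D cells and at 0, 0, 0 and 4.06 in the 4 EPO-treated ones. Flvcr-deleted class B held 4 cells (7, 13, 16 and 40) with little globin and 35 to 40 Nduf genes each. Without them the class D minus class B median was 0.20, and the Flvcr-deleted minus wild-type median was -0.52 with 12 genes lower.

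The number of genes detected per cell moved with the Nduf genes in every group, so cells of like complexity were compared. Cells of classes B to D with 1000 to 2000 detected genes numbered 12 Flvcr-deleted, 18 wild-type and 12 EPO-treated. In them the median number of Nduf genes detected was 22.5, 15.5 and 16.5, and the median share of non-globin RPKM was 1.47%, 0.705% and 1.24%. The Flvcr-deleted minus wild-type median became 0.87, with 1 gene lower and 14 higher, where 19.1% of kept genes were lower and 16.0% higher. The EPO-treated minus wild-type median became 0.36, with 1 gene lower and 6 higher, where 14.0% of kept genes were lower and 7.99% higher. The direction of both medians thus turned with the choice of cells, from class means of as few as 2 wild-type class B cells and 2 EPO-treated class D cells. Ndufv1 (-1.20) and Ndufa10 (-0.61) stayed negative in Flvcr-deleted cells, whereas Ndufb11 stood at 3.36 and Ndufa1 at 2.84.

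**Figure D5:**
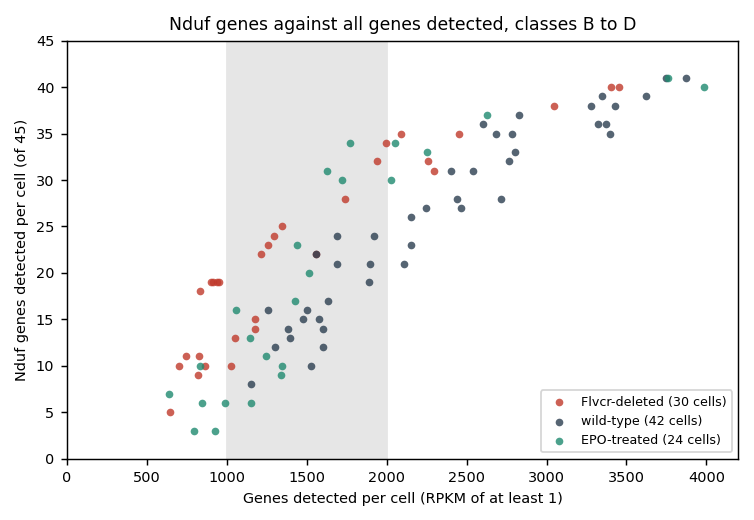
Nduf genes detected per cell out of 45 (vertical axis) against all genes detected per cell (horizontal axis), 1 point per cell of classes B to D, coloured by group. Within the grey band of 1000 to 2000 genes the medians are 15.5 for wild-type, 22.5 for Flvcr-deleted and 16.5 for EPO-treated cells.

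The assembly factors were low. Ndufaf1 to Ndufaf6 had mean levels of at most 1.09 in any group over classes B to D and were detected in at most 11 of 42 wild-type cells. None of the 7 met the rule in a comparison with wild-type. Ndufaf7, a methyltransferase, stood apart from them. It was present in 42 of 42 wild-type, 29 of 30 Flvcr-deleted and 23 of 24 EPO-treated cells, at 3.86 ± 0.96, 3.30 ± 1.05 and 3.55 ± 1.22, the lowest SD over cells of any kept Nduf gene in each group. Ndufa4l2, which is known as a hypoxia-responsive gene, was detected in 1, 1 and 0 cells of the groups. Of the 8 assembly factors with other names that were measured (Acad9, Ecsit, Tmem126b and others), 0 were kept and 0 met the rule against wild-type.

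The other respiratory complexes were described from fixed lists of 38 subunits of complexes II to V, of which 37 were kept. Against wild-type, Flvcr-deleted cells had 9 of them lower and 5 higher, where 48.3% of kept genes were lower and 3.74% higher, and their median was 0.12 against -1.08 for all kept genes. The median was -1.49 for the 4 subunits of complex II, 0.23 for the 9 of complex III, 0.67 for the 10 of complex IV and -0.16 for the 15 of complex V. Atp5a1 (-3.10) and Atp5b (-3.09), subunits of the catalytic head of ATP synthase, were the lowest. In EPO-treated against wild-type cells 19 were lower and 0 higher, where 42.0% and 0.512% of kept genes were, and the median was -1.31 against -0.99. Of 11 regulators of mitochondrial genes 2 were lower in both comparisons, namely Nrf1 (-2.80 in Flvcr-deleted and -2.31 in EPO-treated cells) and Gabpb1 (-1.04 and -1.11), of which Nrf1 alone was kept.

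Class A, the letter with the least Ter119 signal on each chip, held cells of unlike kinds. Wild-type class A cells had 29 to 40 Nduf genes detected (median 31.5), Flvcr-deleted ones 0 to 38 (median 5.5) and EPO-treated ones 6 to 34 (median 12). The Nduf median difference in class A was -2.53 for Flvcr-deleted and -1.43 for EPO-treated against wild-type cells, and the medians of all kept genes were -1.66 and -1.01. Of the 6 wild-type cells 2 had at least 3 granulocyte and monocyte markers, as had 2 of 7 EPO-treated and 1 of 18 Flvcr-deleted cells. The summed level of that list ran from 0 to 11.8, 0 to 13.5 and 0 to 9.23 on the log2 scale, and S100a8 and S100a9 were at 0 in all 3 groups. Of the 10 erythroid markers 7 were detected in wild-type class A, where 4 of 6 cells had at least 3 of them, and Alas2, Slc4a1 and Epb4.2 were at 0. The 9 Flvcr-deleted class A cells whose class name ends in d had a median of 343 genes and 1 Nduf gene detected, and the 9 ending in a had 1381 and 26. The part of these markers and of depth in the class A values was not tested.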

How the data were processed

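Per the labels' protocols, marrow cells were isolated singly on the C1 system, imaged for Ter119, amplified by SMART-Seq and sequenced from Nextera XT libraries. The values are RPKM, deposited by the authors as 1 table of 34898 transcripts. Per the submitters' processing notes, TopHat2 2.0.9 and the mm9 build were used, and no counting tool is given in the sources used here. In EPO-treated columns 100% of values above 0 had at most 2 decimals, against 0.00247% and 0.00274% in Flvcr-deleted and wild-type columns, so they were formatted apart. Of the columns, 4 matched no sample and were not used.

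Values were taken as log2(RPKM + 1), which understates differences of low genes. The log2 values were computed here from the deposited RPKM. A gene was detected at an RPKM of at least 1 and kept at a mean log2 level of at least 1 over all cells. Differences were taken within class letters and averaged over B, C and D. A call needed a size of at least 1 and, between groups, the same sign in each class. Reads per cell were estimated from the smallest step between length-corrected values. Transcript lengths came from GENCODE vM21 by RefSeq identifier, an annotation of another build, and are approximate. Intervals of shares are exact (Clopper-Pearson, 95%).

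The Nduf genes, the gene lists and the alternatives were chosen with earlier results of these data known. The genes named with class values were by rule the 5 largest called differences in each direction, the core subunits, the 5 highest wild-type levels, Ndufa4, Ndufa4l2 and the assembly factors. Counts and medians cover all 45 genes, but 1 core subunit is not reported here by itself and is left out of the plots of single genes. Ndufs6 in class D and the detection pattern of Ndufb9 were singled out after their values were seen. The promoter motifs were shortened after a search with longer NRF1 and YY1 forms had been seen. The scripts were tested on simulated data. Python 3.11.15, numpy 2.4.6, pandas 2.3.3 and scipy 1.17.1 were used.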

Additional observations from a re-analysis of the deposited data

Results flagged for a closer look

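Within single classes of 4 to 10 cells, 21 groups of values were examined for a cell that stood apart, and 1 did. Cell 28 of wild-type class A had a median log2 level over the 45 Nduf genes of 6.26, and the next of the 6 cells had 4.29. Chance gives about 1 such case in 20 groups. Cell 28 also had the most genes detected of the 6 cells, 4047 against a class median of 2878. The part of that number in its Nduf level was not tested.

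Some Nduf genes moved in opposite directions from class B to class D in different groups, each by at least 1 on the log2 scale. Ndufs6 differed by 1.46 in Flvcr-deleted cells, by -1.93 in wild-type cells and by -3.48 in EPO-treated cells. Ndufs5 differed by 1.26 in Flvcr-deleted and by -3.78 in EPO-treated cells. Ndufs3 differed by 1.10 in EPO-treated cells, against -2.93 in Flvcr-deleted and -2.18 in wild-type cells. Ndufs4 differed by 1.10 in EPO-treated cells, against -1.18 in Flvcr-deleted and -1.08 in wild-type cells. None of these differences between groups was tested. Class D held 5 Flvcr-deleted and 4 EPO-treated cells, and Ndufs4 was detected in 2 of those 4.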

How the results depend on the processing

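No paired analysis was possible because the cell numbers only name cells and no test was made. Where a value moved, the cause was not tested. With only cells of 1000 to 2000 detected genes, the median of the Nduf genes was 0.87 for Flvcr-deleted minus wild-type, 0.36 for EPO-treated minus wild-type and 0.055 for class D minus class B in Flvcr-deleted cells. The last was 0.20 without class B cells 7, 13, 16 and 40.

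The share of all kept genes called in the same direction moved too and stands in brackets. Flvcr-deleted minus wild-type had 15 genes lower without class D (55.8%), 2 with a pseudocount of 10 (18.5%), 5 with medians over cells (32.2%) and 1 in the gene window (19.1%). It had 4 higher without class B (5.47%), 2 without class D (3.27%), 1 with cells weighted alike (5.39%), 1 with a pseudocount of 0.1 (4.49%), 2 scaled without globins (5.31%), 3 with medians (3.50%) and 14 in the window (16.0%). EPO-treated minus wild-type had 4 lower with a pseudocount of 10 (12.9%), 8 with medians (25.9%) and 1 in the window (14.0%), and 1 higher without class D (0.945%), 1 with cells weighted alike (1.18%) and 6 in the window (7.99%). Flvcr-deleted minus EPO-treated had 1 lower over classes A to D (6.26%), 4 without class C (14.4%), 5 without class D (18.5%), 0 with a pseudocount of 10 (2.36%) and 1 with medians (6.50%). It had 1 higher over classes A to D (2.44%), 20 without class B (17.4%), 5 without class D (7.60%), 4 with a pseudocount of 10 (3.70%), 5 scaled to 1 sum (3.15%), 5 with medians (4.84%) and 5 without the 4 low-globin cells (4.72%).

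In the gene window these differences changed sign: Ndufa8 0.60, Ndufa9 0.0053, Ndufb10 0.70, Ndufb2 0.90 and Ndufb7 0.80 in Flvcr-deleted minus wild-type, and Ndufa10 0.74, Ndufab1 0.32, Ndufb2 0.63, Ndufb5 0.091, Ndufb9 0.20, Ndufc1 0.53, Ndufv1 0.12 and Ndufv3 0.47 in EPO-treated minus wild-type. With medians over cells Ndufa10 was 0.014 in the latter. The other 476 gene values moved by less than the SD over cells and kept their direction, except Ndufb5 at 0 with medians in Flvcr-deleted minus EPO-treated cells. Over all alternatives 108 of 490 gene values no longer met the rule of size, among them 25 with a pseudocount of 10, 27 in the gene window and 19 with medians. The other 159 summary values moved by less than the SD over cells or, for counts, stayed within 1.5 times. For medians that SD was 2.48, more than the size of each median difference between groups, so staying within it says little. The Flvcr-deleted minus EPO-treated median of 0.47 was 0.024 without class D and 0.00 with medians over cells. It was 0.11 over classes A to D and 1.13 without class B. Scaling moved the median of all kept genes in Flvcr-deleted minus wild-type from -1.08 to -1.32 with 1 sum of RPKM and to -0.91 without globins. Detection near 1 RPKM limits the low genes.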

Other observations

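Ndufaf7 was detected where nearly all other Nduf genes were not. In the 9 Flvcr-deleted class A cells whose class name ends in d, it was detected in 6, and no other Nduf gene was detected in as many. Its mean level over all EPO-treated class A cells was 5.13 ± 1.66 (SD over cells, n = 7), against 4.17 ± 0.26 in wild-type (n = 6) and 3.42 ± 2.09 in Flvcr-deleted class A cells (n = 18).

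In some cells a single Nduf gene took most of the summed Nduf level. Over classes B to D the leading gene took a wild-type median of 16.9% (up to 50.1%), a Flvcr-deleted median of 22.6% (up to 91.7%) and an EPO-treated median of 26.1% (up to 92.1%).

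Over classes B to D the transcripts of complex IV took a median of 0.651% of non-globin RPKM in the wild-type group, 1.18% in the Flvcr-deleted group and 0.973% in the EPO-treated group. Those of complex V took 0.822%, 1.31% and 1.12% in the same order. Complex III transcripts took 0.295%, 0.591% and 0.367%. With classes B to D pooled, the wild-type median was the lowest of the 3 groups for these complexes, as for the Nduf genes. This order did not hold in each class. In class D the EPO-treated median lay below the wild-type one for complex IV (0.235% against 0.572%) and complex V (0.748% against 0.817%). The Nduf genes did the same there (0.511% against 0.809%), as did complex III in class B (0.357% against 0.434%). In the other cases within these classes the EPO-treated median was above. For complex II, near the floor, the pooled wild-type median was highest at 0.0352% (0% to 0.212%). It was 0.0213% (0% to 0.408%) in the Flvcr-deleted and 0.0114% (0% to 0.266%) in the EPO-treated group. The wild-type median was highest in classes B and C as well. In class D the Flvcr-deleted median was higher, at 0.0595% against 0.0253%.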
